A study of Arabidopsis thaliana with 16 samples.

Results

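Roots treated with the synthetic auxin NAA were compared with mock-treated roots in Arabidopsis plants that lacked 3 LBD genes and carried an LBD16 fusion that had not been switched on. Both groups were lbd16-1 lbd18-1 lbd33-1 triple mutants with the transgene gLBD16:GR, in which LBD16 is joined to a glucocorticoid receptor (GR) domain and driven by the regulatory region of LBD16. A GR fusion is held in the cytoplasm until the steroid dexamethasone (DEX) is given, and neither group received DEX. The NAA group had 1 µM NAA for 4 h and the mock group had 0.1% DMSO for 4 h, and seedlings were 5 days old when treated. No DMSO content is stated for the NAA group, so a difference in solvent was not tested. The comparison used all arrays of these groups, 2 with NAA and 2 mock, of 16 arrays in the series. The other 12 arrays held NAA+DEX, DEX, NAA+CHX, CHX, NAA+DEX+CHX and DEX+CHX roots of the same line (2 µM DEX, 10 µM of the protein synthesis inhibitor cycloheximide, CHX, 4 h). No wild-type root was compared, so the values describe auxin responses in this line alone, and any activity of the fusion without DEX was not tested.

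Auxin acts in plants by bringing TIR1/AFB receptors together with Aux/IAA repressors, which are then degraded. This frees auxin response factors (ARFs) to switch on early genes, among them the Aux/IAA genes themselves, the GH3 genes, whose enzymes conjugate auxin to amino acids, and LBD genes. In roots, ARF7 and ARF19 turn on LBD16 and LBD29, which act in the first divisions of lateral root founder cells and in the later emergence of the new root. PUCHI, an AP2/ERF transcription factor, acts in the developing lateral root primordium. The series was designed to find primary downstream genes of LBD16, and NAA against mock shows which auxin responses were measured without DEX.

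The authors deposited 1 intensity per probe set on a linear scale, and the 2% trimmed mean of these values was 500.05 on every array, a scaling seen in the values and not stated in the labels. Median intensity was 173.8 and 174.7 on the NAA arrays and 172.9 and 153.2 on the mock arrays. Between the arrays of a group, log2 values differed with an SD of 0.394 across probe sets for NAA and 0.461 for mock, the widest of the 8 groups. As a sign of RNA quality, actin control probe sets gave a 3' signal over 5' signal of 2.97 and 2.78 with NAA and 3.12 and 2.68 in mock. Of the root cell type markers listed, AGL42 alone had a named probe set, with 132.6 and 127.1 in NAA roots and 143.2 and 104.9 in mock roots, so the tissue label could be checked against 1 gene only. The summed intensity of 10 photosynthesis genes, which mark green tissue, was 1186 and 1284 in NAA roots and 1640 and 1500 in mock roots, a lower sum on both NAA arrays. In single genes the groups could overlap, as in RCA, which activates Rubisco, with 344.0 and 377.5 in NAA and 473.8 and 334.3 in mock. The part of this lower sum in the results below was not tested. In whole roots, fewer cells of a type and less RNA per cell cannot be told apart.

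NAA changed the transcript level of 3042 of 22746 probe sets, 13.4% of those tested, at an adjusted p under 0.05 in limma's moderated test. Of these, 1661 rose (7.3% of all) and 1381 fell (6.07% of all). Changes are differences of mean log2(intensity + 16), a scale that understates the change of weak genes. All 3042 called probe sets had no overlap between the NAA and mock arrays, which by itself is common with 2 arrays a group: 29.4% of all probe sets were higher on both NAA arrays than on both mock arrays and 21.8% were lower. The median change over all probe sets was 0.05 and the median size of a called change was 0.87. Among calls, 585 rises and 607 falls were over 2-fold, 142 and 87 were over 4-fold, and 54 and 22 were over 8-fold. Rises were thus the more numerous among the strongest changes. The split between rises and falls depended on scaling: rises made up 54.6% of calls as deposited, 47.3% after quantile normalization and 41.3% after centring each array on its median. Without NAA replicate 1 the count was 1510, without NAA replicate 2 it was 1953 and without mock replicate 2 it was 1999. With the 4 compared arrays alone it was 671. Of the probe sets 13513 listed exactly 1 gene, and these stood for 13356 genes, of which 906 rose (6.78%) and 697 fell (5.22%).

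**Figure D1:**
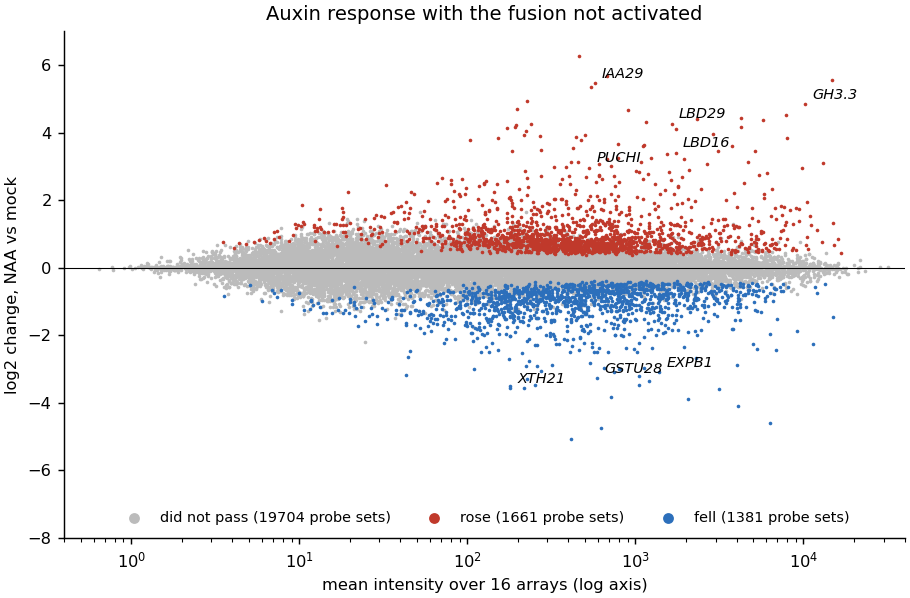
Log2 change (NAA over mock) of each of 22746 probe sets against its mean intensity over 16 arrays on a log axis. The 1661 probe sets that rose are red, the 1381 that fell are blue and the 19704 that did not pass are grey, and the largest rises lie above the largest falls in size.

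The share that fell was larger at each higher mock level, and the share that rose was larger at middle levels than at weak or high ones. Of 7130 probe sets with a mean mock intensity under 50, 282 rose (3.96%) and 60 fell (0.842%). Of 5114 between 50 and 200, 513 rose (10.0%) and 233 fell (4.56%). Of 7071 between 200 and 1000, 710 rose (10.0%) and 625 fell (8.84%). Of 3431 above 1000, 156 rose (4.55%) and 463 fell (13.5%). A gene at the floor cannot be seen to fall, and since mock arrays both set the level and enter the change, these shares are a description only.

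Early auxin genes were among the largest named changes. IAA29, an Aux/IAA repressor, had intensities of 2174 and 2198 in NAA roots, against 53.0 and 20.1 in mock roots. The NAA arrays were all far above the mock arrays, and the change was 5.46 on the log2 scale, or 44.1-fold (SE 0.40, adjusted p = 6.6e-06). GH3.3 had 21444 and 20511 in NAA roots, against 603.3 and 845.3 in mock roots, without overlap between the groups (log2 change 4.84, SE 0.23, adjusted p = 2.7e-07). GH3.1, which encodes another auxin-conjugating enzyme of the family, had 1488 and 1565 in NAA roots and 49.7 and 64.5 in mock roots (log2 change 4.41, SE 0.19). WES1, also known as GH3.5, had 12104 and 10722 in NAA roots and 625.0 and 604.8 in mock roots (log2 change 4.18, SE 0.12, adjusted p = 1e-08). WES1 had the smallest SE of the 20 largest rises, and none of these GH3 genes overlapped between groups.

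In all, 3 of 5 measured GH3 genes rose and none fell, with a median change of 4.18 against 0.05 over all genes. The remaining members did not pass: GH3.17, which also conjugates auxin, had 2021 and 1766 in NAA roots and 2405 and 2204 in mock roots (log2 change -0.28, adjusted p = 0.35). GH3.9 was near the floor, with 17.3 and 12.4 in NAA roots and 10.3 and 23.9 in mock roots. The family thus held very large rises beside members without a detectable change.

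Of 32 Aux/IAA genes 7 were measured, with a median change of 1.12. Of these, 4 rose (57.1%, against 6.78% of all genes) and 1 fell (14.3%, against 5.22%). IAA30 had 1265 and 1328 in NAA roots and 35.7 and 70.0 in mock roots (log2 change 4.30, SE 0.27, adjusted p = 1.9e-06). IAA18 had 1091 and 911.0 in NAA roots and 264.8 and 308.0 in mock roots (log2 change 1.75, SE 0.22). IAA20 had 140.3 and 115.1 in NAA roots and 64.8 and 37.6 in mock roots (log2 change 1.12, SE 0.22, adjusted p = 0.0069). These 3 repressor genes and IAA29 had no overlap between groups. IAA33 moved the other way, with 11.2 and 31.4 in NAA roots and 76.7 and 62.9 in mock roots (log2 change -1.25, SE 0.31, adjusted p = 0.022). Its call was lost with an offset of 1, with array weights, with the 4 compared arrays alone, and without NAA replicate 1 or either mock array. The IAA20 call was lost without NAA replicate 1, without mock replicate 2 and with the 4 compared arrays alone. IAA31 had 122.5 and 116.5 in NAA roots and 128.9 and 119.2 in mock roots and did not pass (adjusted p = 0.94), and IAA34, with a log2 change of -0.78, did not pass either (adjusted p = 0.21). HAT2, an auxin-inducible HD-Zip II transcription factor, had 1652 and 1605 in NAA roots and 642.3 and 680.8 in mock roots (log2 change 1.28, SE 0.12, adjusted p = 5.6e-05).

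Genes of lateral root founding rose in roots without DEX. LBD29, which is not among the mutated genes, had 6021 and 6701 in NAA roots, against 340.4 and 295.0 in mock roots (log2 change 4.26, SE 0.18, adjusted p = 1.4e-07). LBD16 had 5217 and 5073 in NAA roots, against 504.3 and 443.9 in mock roots (log2 change 3.40, SE 0.15, adjusted p = 1.5e-07). The labels do not say whether the LBD16 probe set reads the transgene, the mutant locus or both, so this value is a sum over whatever it binds. PUCHI had 495.2 and 572.6 in NAA roots, against 63.5 and 46.7 in mock roots (log2 change 2.96, SE 0.15, adjusted p = 3.9e-07). The NAA arrays lay above the mock arrays without overlap in all 3 genes. CR4, a receptor kinase known as ACR4 that acts in founder cell divisions, had 61.1 and 61.0 in NAA roots and 33.3 and 70.5 in mock roots, which overlapped (adjusted p = 0.70). Together 3 of the 4 measured genes of this list rose (75.0%, against 6.78% of all genes), with a median change of 3.18. LBD16 and LBD29 were the only LBD genes with a named probe set, and LBD18 and LBD33 were not analysed here.

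**Figure D2:**
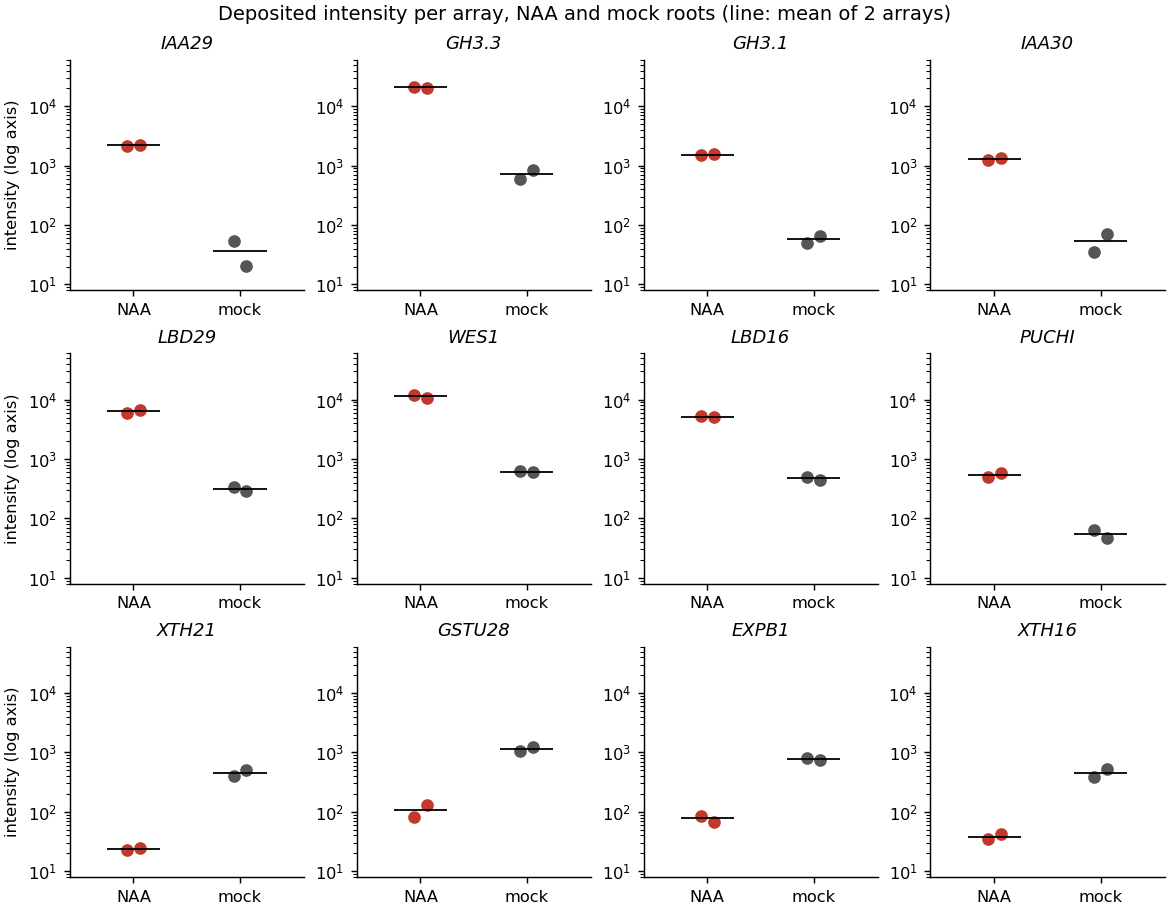
Deposited intensity of 12 genes on each array, NAA left and mock right, on a log axis, where points are arrays and lines are means of 2 arrays. In each of the top 8 panels (IAA29, GH3.3, GH3.1, IAA30, LBD29, WES1, LBD16, PUCHI) both NAA arrays lie above both mock arrays, and in XTH21, GSTU28, EXPB1 and XTH16 both lie below.

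The 20 largest rises among named genes ran from 3.38 to 5.46 on the log2 scale, and 10 of them are known here by locus only. Beside the auxin genes above they held EXO (EXORDIUM), a gene linked to brassinosteroid-dependent growth, with 3087 and 2507 in NAA roots and 185.4 and 172.1 in mock roots (log2 change 3.85, SE 0.15). They also held PR-1-LIKE, a relative of the pathogenesis-related PR-1 gene, with 573.4 and 643.7 in NAA roots and 35.4 and 11.9 in mock roots (log2 change 4.04, SE 0.55). Its SE was the largest of the 20. AT2G23060 was at the floor in mock roots, with 503.2 and 621.3 in NAA roots and 6.61 and 5.80 in mock roots (log2 change 4.70, SE 0.25). Such on-off patterns were rare: 23 probe sets were under 50 on both mock arrays and over 200 on both NAA arrays, 7 of them with 1 named gene. They were AT2G23060, AT1G73610, PR-1-LIKE, AT4G11340, AT5G47440, AT1G76210 and AT1G15600. The largest rise of all, 6.27, belonged to a probe set with no listed gene.

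CLE44 and CLE41, which encode the same secreted peptide, TDIF, a signal that maintains vascular stem cells and holds back xylem formation, changed in opposite directions. CLE44 had 1576 and 1430 in NAA roots and 91.5 and 97.6 in mock roots (log2 change 3.78, SE 0.19, adjusted p = 4.7e-07). CLE41 had 298.0 and 328.8 in NAA roots and 545.9 and 670.0 in mock roots (log2 change -0.92, SE 0.20, adjusted p = 0.011). NAA arrays were thus all above mock arrays for CLE44 and all below them for CLE41. Among 16 measured peptide hormone genes matched by symbol, CLE44 was the 1 that rose (6.25%, against 6.78% of all genes). In this list 3 fell (18.8%, against 5.22%), and the median change was -0.23. The match missed RALFL22, which fell, and AT4G37295, a peptide gene that rose by 4.11. Within the list, the other falls were RALFL24 (log2 change -0.65) and RALFL27 (log2 change -0.64), members of the RALF family of growth-regulating peptides. All 3 falls lost their call without NAA replicate 1, without mock replicate 2, or with the 4 compared arrays alone.

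Auxin synthesis and transport genes gave single falls. YUC6, a flavin monooxygenase of auxin synthesis, had 74.0 and 27.2 in NAA roots and 114.9 and 121.6 in mock roots (log2 change -1.11, SE 0.33, adjusted p = 0.046). It was the 1 called gene of 6 in its list (16.7% fell, against 5.22% of all genes). The YUC6 call was lost with an offset of 1, with array weights, with the 4 compared arrays alone, and in most fits that left out 1 array. WAG2, a kinase of the PINOID group that acts on PIN auxin exporters, had 165.7 and 216.0 in NAA roots and 400.7 and 569.2 in mock roots (log2 change -1.27, SE 0.19, adjusted p = 0.0015). PID2, a related kinase, had 34.5 and 32.6 in NAA roots and 19.8 and 32.6 in mock roots and did not pass (adjusted p = 0.53).

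Of 4 genes listed for ethylene, 2 rose, and neither is a gene of ethylene synthesis. ARL (ARGOS-LIKE), a gene of organ growth, had 813.2 and 913.4 in NAA roots and 126.9 and 178.2 in mock roots (log2 change 2.40, SE 0.15, adjusted p = 2.1e-06). RTE1, which promotes the signalling-off state of the ethylene receptor ETR1, had 973.9 and 1037 in NAA roots and 220.4 and 242.9 in mock roots (log2 change 2.04, SE 0.17, adjusted p = 1.9e-05). EIN3, the main transcription factor of the pathway, had 1376 and 1288 in NAA roots and 1196 and 1137 in mock roots and did not pass (adjusted p = 0.36). No overlap was seen between groups for ARL or RTE1.

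More cell wall loosening genes fell than rose, and most did not pass. These genes encode expansins, which slip wall polymers apart, and XTH enzymes, which cut and rejoin xyloglucan. Of 29 measured members 4 rose (13.8%, against 6.78% of all genes), 9 fell (31.0%, against 5.22% of all genes) and 16 did not pass, with a median change of -0.26. XTH21 had 22.6 and 24.3 in NAA roots, against 402.6 and 512.3 in mock roots (log2 change -3.58, SE 0.23, adjusted p = 2.1e-06). EXPB1, a beta-expansin, had 86.3 and 68.2 in NAA roots, against 810.7 and 753.8 in mock roots (log2 change -3.10, SE 0.14). XTH16 had 34.2 and 42.0 in NAA roots, against 381.1 and 516.8 in mock roots (log2 change -3.09, SE 0.16). Each of these genes lay far below its mock level, without overlap between groups.

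XTH32 had 388.8 and 481.9 in NAA roots and 1263 and 1379 in mock roots (log2 change -1.57), and XTH33 had 41.8 and 43.3 in NAA roots and 164.3 and 183.3 in mock roots (log2 change -1.70). EXLA2, an expansin-like gene, had 13.2 and 18.8 in NAA roots and 243.7 and 231.2 in mock roots (log2 change -2.99, SE 0.32). Among the rises, EXPA20 had 544.8 and 547.2 in NAA roots and 227.0 and 285.0 in mock roots (log2 change 1.06, SE 0.16, adjusted p = 0.0016). EXPA4 was strongly expressed in both groups, with 5359 and 5297 in NAA roots and 3027 and 3586 in mock roots (log2 change 0.69, SE 0.12, adjusted p = 0.0041). The root hair expansins EXPA7 (log2 change 0.31, adjusted p = 0.23) and EXPA18 (log2 change -0.41, adjusted p = 0.13) did not pass. With the 4 compared arrays alone this list gave 0 rises and 7 falls.

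Among genes that build or decorate wall polysaccharides, 1 of 37 measured rose (2.70%, against 6.78% of all genes) and 9 fell (24.3%, against 5.22%). The median change of the list was -0.13. The 9 falls became 5 without NAA replicate 1, 6 without mock replicate 2 and 2 with the 4 compared arrays alone. Many of these belong to the TBL family, several members of which acetylate xylan and other wall polymers. TBL38 had 341.3 and 327.8 in NAA roots and 827.6 and 827.4 in mock roots (log2 change -1.27, SE 0.14, adjusted p = 0.00011). TBL21 had 121.2 and 131.5 in NAA roots and 296.1 and 377.9 in mock roots (log2 change -1.30, SE 0.14, adjusted p = 0.00012). TBL39, TBL25, TBL37 and TBL19 also fell, with log2 changes of -0.64 to -1.03. The 1 rise of the list, TBL42, named after its values were seen, kept its call in 2 of the 24 alternatives that tested it. In pectin remodelling 7 of 40 listed genes were measured, and genes not matched by symbol were left out. ATPMEPCRD, a pectin methylesterase, was the 1 called gene of these and fell (14.3%, against 5.22% of all genes). It had 59.9 and 63.5 in NAA roots and 123.8 and 162.3 in mock roots (log2 change -1.02, SE 0.23). Its call was lost without NAA replicate 1, NAA replicate 2 or mock replicate 2, and with the 4 compared arrays alone.

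The deepest named fall was AT4G25250, which is given by its locus and is in none of the gene lists. It had 52.4 and 66.7 in NAA roots, against 1653 and 2447 in mock roots (log2 change -4.75, 27.0-fold lower, SE 0.36, adjusted p = 7.8e-06). The 20 largest named falls ran from -4.75 to -2.51, and 15 of them are known here by locus only. In all, 13 probe sets were over 200 on both mock arrays and under 50 on both NAA arrays, and 10 of them had 1 named gene, including XTH21, XTH16 and EXLA2. The lowest change of all, -5.08, was at a probe set that lists several genes.

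Conjugating enzymes of small-molecule metabolism also held falls. GSTU28, a tau-class glutathione transferase, had 80.7 and 131.4 in NAA roots, against 1055 and 1214 in mock roots (log2 change -3.27, SE 0.21, adjusted p = 2.6e-06). GSTU27 (log2 change -1.23), GSTU26 (log2 change -1.40) and ATGSTF13 (log2 change -0.86) fell as well, so that 4 of 14 measured glutathione transferases fell (28.6%, against 5.22% of all genes) and none rose. Their median change was -0.28, and with the 4 compared arrays alone 1 of them fell.

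UDP-glycosyltransferases attach sugars to hormones and secondary metabolites, and 52 were measured, with a median change of -0.15. Of these, 3 rose (5.77%, against 6.78% of all genes) and 10 fell (19.2%, against 5.22%). UGT71C2 had 105.4 and 125.4 in NAA roots and 229.3 and 275.9 in mock roots (log2 change -1.03, SE 0.14). UGT84A1 had 398.2 and 358.7 in NAA roots and 891.9 and 1008 in mock roots (log2 change -1.29, SE 0.22). On the other side, UGT73B4 had 595.6 and 671.7 in NAA roots and 255.2 and 359.8 in mock roots (log2 change 1.02, SE 0.19), and UGT87A2 rose by 0.93. The family's share of rises was thus near that of all genes. Its falls were fewer in some fits that left out an NAA or a mock array, and numbered 2 with the 4 compared arrays alone. Of 22 cytochrome P450 genes 2 fell, CYP84A4 (log2 change -0.93) and CYP71B37 (log2 change -0.87), and none rose. That share, 9.09%, is near the 5.22% of all genes, and CYP71B37 lost its call in each fit that left out an NAA or a mock array.

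Glucosinolates are sulfur-rich defence compounds made from methionine or tryptophan. Of the 5 measured genes of their synthesis, 2 fell (40.0%, against 5.22% of all genes). BCAT4, the aminotransferase that opens methionine chain elongation, had 1456 and 1656 in NAA roots and 3424 and 3617 in mock roots (log2 change -1.17, SE 0.18, adjusted p = 0.0016). UGT74B1, which glucosylates the thiohydroximate intermediate, had 1406 and 1512 in NAA roots and 3459 and 3884 in mock roots (log2 change -1.32, SE 0.19, adjusted p = 0.00087). GTR2, a glucosinolate transporter placed in the nutrient list as NPF2.11, had 864.0 and 857.1 in NAA roots and 1670 and 1729 in mock roots (log2 change -0.97, SE 0.14, adjusted p = 0.001). All 3 genes had lower values on both NAA arrays than on either mock array. The other measured synthesis genes, AOP1 (log2 change -0.34), AOP3 (log2 change -0.42) and GSTU20 (log2 change -0.33), did not pass.

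Among 18 measured genes of nutrient uptake, 1 rose (5.56%, against 6.78% of all genes) and 3 fell (16.7%, against 5.22%). All 4 were of the NRT1/PTR transporter family, which carries nitrate, peptides, hormones or glucosinolates. AT1G59740 (NPF4.3) had 1476 and 1916 in NAA roots, against 427.4 and 215.6 in mock roots (log2 change 2.41, SE 0.28, adjusted p = 0.00022). AT2G26690 (NPF6.2) had 156.5 and 187.0 in NAA roots, against 605.9 and 507.4 in mock roots (log2 change -1.61, SE 0.24). AT3G21670 (NPF6.4) had 16.4 and 32.1 in NAA roots, against 99.4 and 121.5 in mock roots (log2 change -1.67, SE 0.30). Members were matched by symbol, and the FRO1 counted among the uncalled genes of this list is FROSTBITE1 in the reference table, not an iron reductase.

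Of 10 measured stress-responsive transcription factors 3 rose (30.0%, against 6.78% of all genes) and none fell, with a median change of 0.34. STZ, a zinc-finger repressor also called ZAT10, had 270.7 and 250.1 in NAA roots and 120.8 and 102.9 in mock roots (log2 change 1.11, SE 0.23, adjusted p = 0.0082). WRKY20 (log2 change 0.71) and NAC014 (log2 change 0.65) rose by less, and without NAA replicate 1 none of the 3 calls was kept. WRKY53, a senescence and defence regulator, had 82.3 and 70.6 in NAA roots and 81.5 and 41.8 in mock roots and did not pass (adjusted p = 0.66).

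The few cell cycle genes measured did not pass in this comparison. Of 106 genes in the list 9 had a named probe set, and limma called 0 of these. Among the 9, 3 had an unadjusted p under 0.05, and the median change was 0.16. ICU2, the catalytic subunit of DNA polymerase alpha, had 240.3 and 184.3 in NAA roots and 162.0 and 117.7 in mock roots (log2 change 0.55, adjusted p = 0.063). POLA3, the primase subunit of the same complex, had 533.2 and 476.1 in NAA roots and 378.5 and 337.5 in mock roots (log2 change 0.48, adjusted p = 0.095). Both had higher values on each NAA array without reaching the threshold, and 1 cell cycle gene was called higher with an offset of 64, with a mean intensity of at least 50, and without mock replicate 1. AUR1, a mitotic Aurora kinase, had 622.3 and 634.3 in NAA roots and 759.9 and 582.7 in mock roots (adjusted p = 0.81). Among root stem cell and meristem genes UPB1, a bHLH factor that sets the border between division and elongation, was the 1 call of 4, with 598.6 and 560.1 in NAA roots and 326.6 and 456.0 in mock roots (log2 change 0.57, adjusted p = 0.044). That call was kept in 4 of 25 alternatives and lost in the others, which included quantile normalization, median centring and leaving out either NAA array.

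Lists for other hormones had few measured members and no calls in limma. Named probe sets covered 4 of 56 cytokinin genes, 7 of 39 jasmonate genes, 5 of 78 abscisic acid genes and 3 of 39 gibberellin genes. None of 4 cytokinin genes passed (1 with an unadjusted p under 0.05, median -0.51), among them the response regulator ARR15, with 25.1 and 14.1 in NAA roots and 90.9 and 16.9 in mock roots. Its relative RR16 was lower on both NAA arrays than on both mock arrays and did not pass either (log2 change -0.74, SE 0.31, adjusted p = 0.15). None of 7 jasmonate genes (0 unadjusted), 5 abscisic acid genes (1 unadjusted) and 3 gibberellin genes (0 unadjusted) passed either, nor did 4 root hair genes (1 unadjusted) or 10 photosynthesis genes (2 unadjusted, median -0.29). Single members fell among 7 class III peroxidases (AT2G41480, log2 change -0.69) and 7 genes matched as flavonoid synthesis (UGT78D1, log2 change -1.43, adjusted p = 0.04). Each is 14.3% of its list, against 5.22% of all genes. Of 25 alternatives, the peroxidase call was lost in 5, among them those without NAA replicate 1 or either mock array, and the UGT78D1 call in 14, among them each that left out an NAA or a mock array. The symbol CHI counted in the flavonoid list is a chitinase in the reference table. The plot of calls by list shows GH3, Aux/IAA and stress factors on the side of rises and the wall loosening, wall synthesis, glutathione transferase and glycosyltransferase lists on the side of falls.

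**Figure D3:**
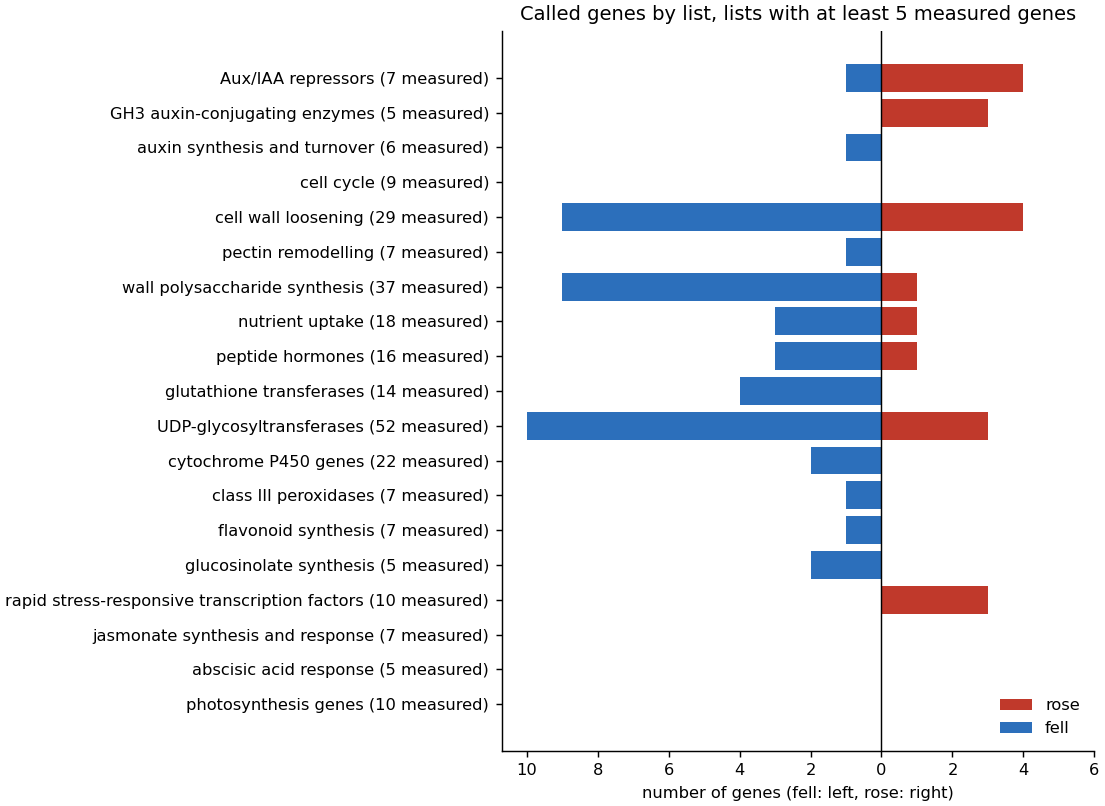
Number of genes that fell (bars to the left, blue) and rose (bars to the right, red) with NAA, for lists with at least 5 measured genes; the number measured stands beside each name. UDP-glycosyltransferases had 10 falls and 3 rises, and cell wall loosening genes had 9 falls and 4 rises.

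Many genes that DEX raised in roots with CHX were also raised by NAA without DEX. No line without the fusion was given DEX, so effects of DEX itself and of the fusion cannot be told apart. The mean DEX effect in arrays with CHX, which shares no array with NAA against mock, called 33 probe sets (0.145% of 22746), 27 higher (0.119%) and 6 lower (0.0264%) with DEX. Of the 27, 22 rose with NAA alone (81.5%, against 7.3% of all probe sets), none fell and 5 did not pass, with a median change of 1.34. In NAA+DEX against DEX 24 of the 27 were called, against 23.9% of all probe sets. Beside WES1, EXPA20, EXPA4 and PUCHI they included AT4G37295, with 2314 and 2092 in NAA roots and 109.6 and 114.5 in mock roots (log2 change 4.11, SE 0.16). AT1G30760 had 821.6 and 866.9 in NAA roots and 83.0 and 99.8 in mock roots (log2 change 3.01, SE 0.24), and AT1G64405 had 3123 and 3017 in NAA roots and 514.1 and 574.8 in mock roots (log2 change 2.46, SE 0.14). Those raised by DEX with CHX yet not called with NAA alone included AT5G52390. It had 27.6 and 43.0 in NAA roots and 39.8 and 26.3 in mock roots (log2 change 0.06, adjusted p = 0.94). SWEET8, AT1G28400 and LCR67 also did not pass. Of the 6 lowered by DEX with CHX, 2 fell with NAA, as did 6.07% of all probe sets, and 4 did not pass. The NAA changes of these 6 ran from -0.56 to 0.43 with a median of -0.21, and 0 were called in NAA+DEX against DEX.

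The response was seen again, in most of its probe sets, in roots given DEX, which activates the fusion. NAA+DEX against DEX uses 4 other arrays and called 5436 probe sets (23.9%), 3203 higher (14.1%) and 2233 lower (9.82%). Of the 1661 rises, 1586 had the same sign there (95.5%) and 1184 were called higher again (71.3% of these rises and 37.0% of the 3203), while 8 were called lower. Of the 1381 falls, 1306 had the same sign (94.6%) and 1044 were called lower again (75.6% of these falls and 46.8% of the 2233), while 18 were called higher. Median changes were close in size, 0.82 for the rises without DEX and 0.80 with it, and -0.94 for the falls in both. The comparisons share no array but share each probe set's variance estimate. All 20 of the largest rises and all 20 of the largest falls were called again.

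The difference between these auxin responses, tested as the NAA by DEX interaction, passed for 187 probe sets (0.822%), 90 positive (0.396%) and 97 negative (0.426%). None of the 20 largest rises or 20 largest falls was among them. In LBD29 the interaction was 0.44 (SE 0.26, adjusted p = 0.59), in WES1 -0.04 (SE 0.17, adjusted p = 0.96) and in PUCHI 0.65 (SE 0.21, adjusted p = 0.26). BCAT4 fell further with DEX, to 375.9 and 416.2 in NAA+DEX roots, against 3415 and 3225 in DEX roots (log2 change -3.02, interaction -1.85, SE 0.26, adjusted p = 0.0096). EXPA4 rose further, with 11862 and 12157 in NAA+DEX roots and 3715 and 3204 in DEX roots (log2 change 1.79, interaction 1.10, SE 0.18, adjusted p = 0.016). EXPA15, named after its values were seen, changed sign: it had 799.3 and 893.6 in NAA roots and 1801 and 1903 in mock roots (log2 change -1.12), yet 3794 and 3560 in NAA+DEX roots and 1911 and 1850 in DEX roots (log2 change 0.96). Its interaction was 2.08 (SE 0.19, adjusted p = 0.0013).

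A further 3182 probe sets were called in NAA+DEX against DEX alone, and 2807 of them (88.2%) had the same sign in NAA against mock, with 76 passing the interaction. For the others, no difference between the states with and without DEX was shown. The cell cycle list is such a case: 6 of its 9 genes rose in NAA+DEX against DEX (median 0.67), where 14.1% of all probe sets rose. In NAA against mock 0 of them rose, against 7.3% of all probe sets, but 0 passed the interaction. The largest cell cycle interaction was that of AUR1, at 0.74 (SE 0.23, adjusted p = 0.23).

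**Figure D4:**
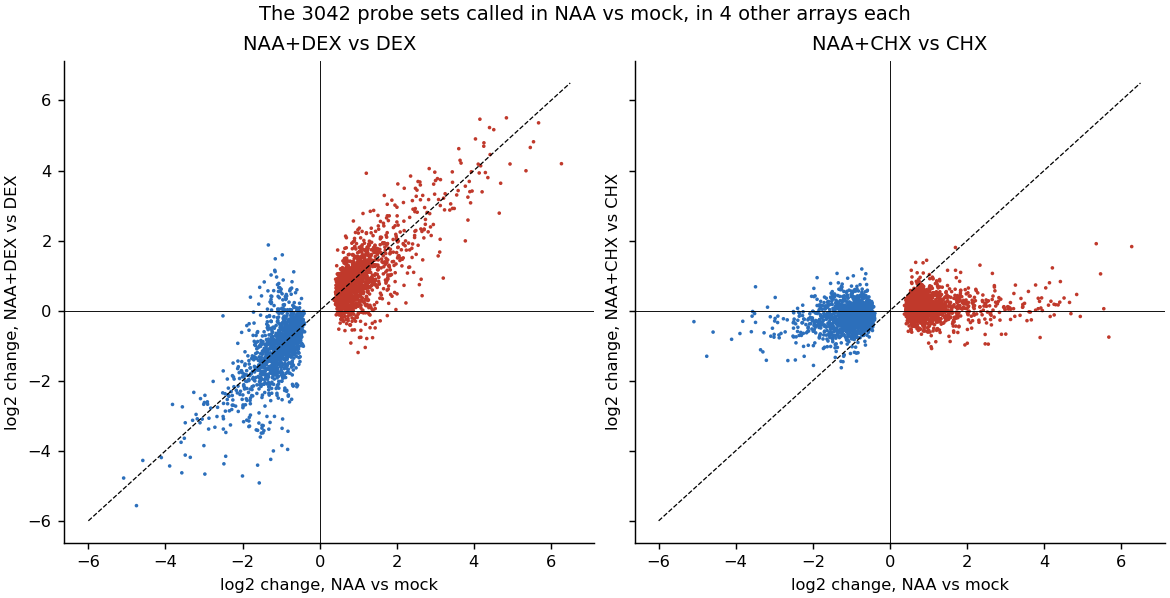
Log2 changes of the 3042 probe sets called in NAA against mock (x axis, rises red, falls blue) set against their change in NAA+DEX against DEX (left) and in NAA+CHX against CHX (right); the dashed line marks equal changes. Points follow the dashed line on the left, where 2228 were called again in the same direction, and lie near 0 on the right, where 20 were.

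In roots given CHX, little of the auxin response was measured. NAA+CHX against CHX called 38 probe sets (0.167%), 19 in each direction (0.0835% each), and 2739 had an unadjusted p under 0.05. Of the 1661 rises, 1053 had the same sign there (63.4%) and 6 were called again, with a median change of 0.09. Of the 1381 falls, 973 had the same sign (70.5%) and 14 were called again, with a median of -0.18. The NAA by CHX interaction passed for 1025 probe sets (4.51%), 467 positive (2.05%) and 558 negative (2.45%). This interaction holds the NAA and mock arrays, so its sign among the called probe sets is not independent of the call.

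Most of the 20 largest rises had a higher level with CHX alone than in roots without NAA or CHX. Of the 20, 18 had a higher mean with CHX alone than in mock, as had 47.4% of all probe sets, and 5 a higher mean than with NAA, as had 44.6% of all. Since low mock values helped to choose these genes, DEX roots, which did not, were compared too: 18 of the 20 were higher with CHX alone than with DEX alone, against 50.4% of all probe sets. Their median intensity was 1678 in NAA roots and 86.2 in mock roots, and it was 773.5 in NAA+CHX roots and 685.6 in CHX roots. None of the 20 was called in NAA+CHX against CHX and 4 had an unadjusted p under 0.05, with changes of -0.29 to 1.05. GH3.3 had 10657 and 12340 in NAA+CHX roots and 6757 and 10244 in CHX roots (log2 change 0.46, adjusted p = 0.47). EXO had 13621 and 15578 in NAA+CHX roots and 12824 and 15325 in CHX roots, about as high in both and above the 3087 and 2507 of NAA roots.

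The level with CHX alone differed between genes. CLE44 had 125.5 and 169.2 in NAA+CHX roots and 138.2 and 150.5 in CHX roots, above its mock level and far below its NAA level, and LBD29 had 809.3 and 713.6 in NAA+CHX roots and 617.1 and 722.6 in CHX roots, between its mock and NAA levels. Their log2 changes there were 0.01 and 0.18, and their NAA by CHX interactions were -3.77 (CLE44) and -4.08 (LBD29, adjusted p = 9.7e-06). Among the 20 largest falls, 9 had a higher mean with CHX alone than in mock, a share near the 47.4% of all probe sets. High mock values helped to choose these falls. Against DEX alone, 9 of the 20 were likewise higher with CHX alone, as were 50.4% of all probe sets. XTH16 had 939.9 and 979.7 in NAA+CHX roots and 1525 and 1680 in CHX roots (log2 change -0.73, adjusted p = 0.094). AT4G25250 was low in both, with 64.4 and 69.4 in NAA+CHX roots and 191.2 and 185.5 in CHX roots (log2 change -1.30, adjusted p = 0.18). How far CHX blocked protein synthesis was not measured.

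**Figure D5:**
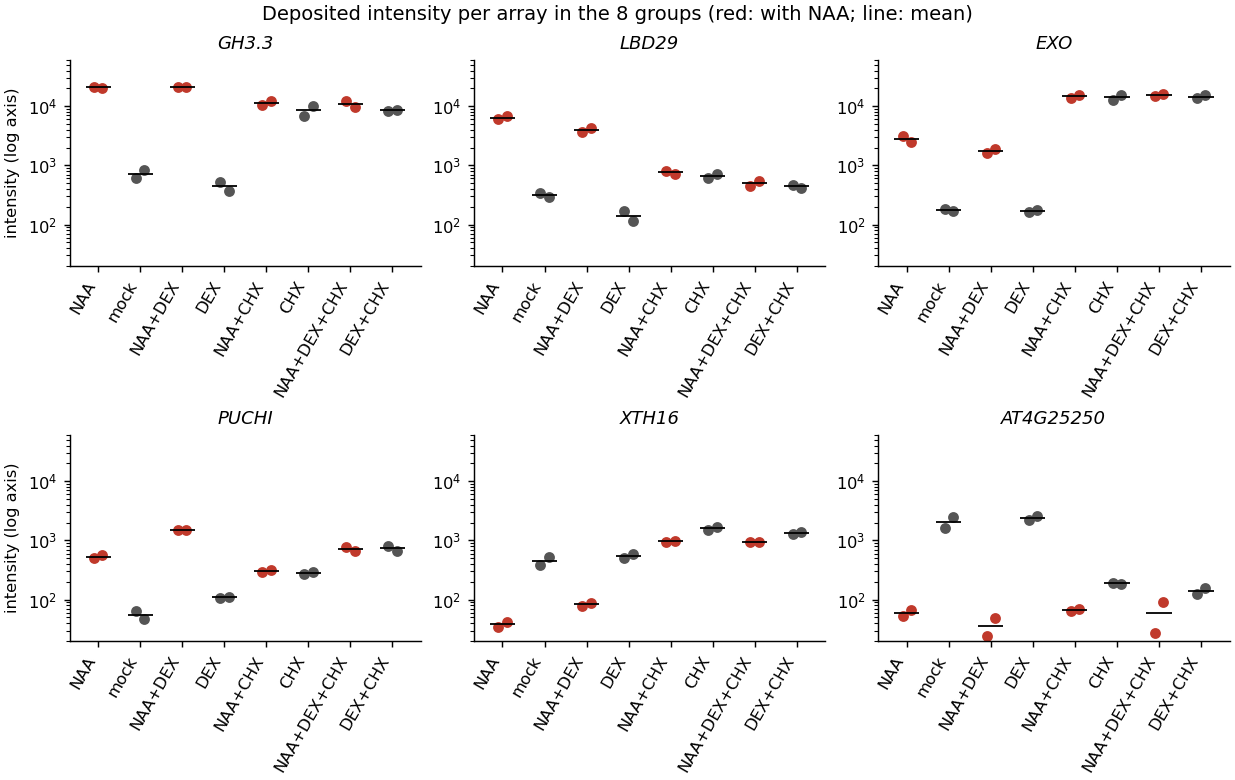
Deposited intensity of 6 genes on each of the 16 arrays by group, on a log axis, with NAA-treated groups in red left of their counterparts without NAA in grey; lines are means of 2 arrays. NAA and its counterpart are far apart in the groups without CHX and closer in NAA+CHX against CHX. In that pair EXO and GH3.3 are high with and without NAA, while AT4G25250 and XTH16 are still lower with NAA.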

How the data were processed

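RNA of whole roots was measured on 16 single-channel Affymetrix arrays, 2 for each of 8 treatments, and groups were taken from the labels. The authors deposited 1 linear intensity per probe set and array, summarised with Affymetrix Expression Console 1.3 per the submitters' processing notes. The summary method, background correction and scaling are not given in the sources used here. Of the 2 labelling kits in the labels, which array had which is not stated, so a kit effect was not tested.

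The 64 control probe sets of 22810 were dropped and no filter was set on the 22746 left, which were analysed as log2(intensity + 16). The model had 1 mean for each of the 8 groups, fitted to the 16 arrays with limma 3.58.1 under R 4.3.3, which left 8 degrees of freedom. Tests were two-sided, with Benjamini-Hochberg adjustment over all probe sets and a threshold of 0.05. The code was tested on simulated data. SE is that of the model, fold is 2 to the power of the log2 change, and precision is limited by having 2 arrays a group. The submitters describe the replicates as independent without naming plants or cultures, so p-values weigh changes against the spread between arrays only. That spread was estimated over all 8 groups together, and the mock arrays had the widest of their own.

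Genes were named where a probe set listed exactly 1 gene (13513, with 503 listing several and 8730 none), matched to the RefSeq table of TAIR10.1, and the probe set with the highest mean stood for a gene. A gene not mentioned was not necessarily unchanged, and the measured genes of a list were those with a named probe set, often a minority. The 34 gene lists were matched by symbol, 4 of them had no named probe set, and the members and lists were chosen with earlier results of these data known. Named genes were the 20 largest rises and falls without overlap between arrays, 5 each way for an interaction, LBD16, LBD29 and PUCHI, and from each list up to 6 called and 2 uncalled members, or all members of lists of up to 12. Genes raised or lowered by DEX with CHX, and on-off genes, were named by those criteria.

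Alternatives were another offset (1 or 64), a minimum mean intensity of 50, quantile normalization, median centring, a trended robust prior, array weights, a replicate block, the compared arrays alone, and leaving out each array.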

Additional observations from a re-analysis of the deposited data

Results flagged for a closer look

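The auxin effect differed between roots with and without DEX for 187 probe sets, and between roots with and without CHX for 1025. Each count is from a test of the interaction itself in limma.

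With DEX the NAA effect was higher by 3.21 on the log2 scale in AT3G15670, 3.11 in AT5G52390, 2.71 in AT2G03740, 2.44 in AT3G57950 and 2.44 in AT3G59850. AT3G57950 averaged 1199 ± 26.4 in NAA+DEX roots and 156.5 ± 44.8 in DEX roots, against 143.6 ± 29.2 in NAA roots and 104.2 ± 2.92 in mock roots (SD, n = 2 each). The NAA effect with DEX was lower in AT3G62040 (-3.19), AT4G30450 (-2.72), AT1G49470 (-2.63), AT3G53980 (-2.62) and AT1G48750 (-2.38). AT3G62040 had 151.0 and 137.2 in NAA+DEX roots and 2285 and 2557 in DEX roots, against 1422 and 1355 in NAA roots and 2198 and 2464 in mock roots.

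With CHX the NAA effect was higher, that is less negative, in AT3G45680 (4.17), AT2G41810 (3.54), AT4G25250 (3.45), AT1G19900 (3.43) and XTH21 (3.42). XTH21 had 116.1 and 96.8 in NAA+CHX roots and 110.5 and 130.3 in CHX roots. The NAA effect with CHX was lower in AT2G23060 (-4.78), IAA29 (-4.41), GH3.3 (-4.38), AT1G73610 (-4.32) and GH3.1 (-4.16). GH3.1 had 3460 and 3242 in NAA+CHX roots and 2681 and 2983 in CHX roots, all above its NAA level without CHX.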

How the results depend on the processing

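All 41 genes taken from the largest rises and falls, with PUCHI, kept their direction in 1023 values under the alternatives, and 1021 kept their side of the threshold. The exceptions were AT2G34610 with an offset of 1 (adjusted p = 0.0571) and AT3G59370 with the compared arrays alone (adjusted p = 0.0505). The compared arrays alone called 671 probe sets in NAA against mock (334 rose, 337 fell), 3319 in NAA+DEX against DEX, 0 in NAA+CHX against CHX, 14 for NAA by DEX and 438 for NAA by CHX; 557 calls were seen again in NAA+DEX against DEX and 0 in NAA+CHX against CHX. That fit has fewer arrays to estimate the variance, and 4499 probe sets had an unadjusted p under 0.05 in NAA against mock. Leaving out single arrays gave 1510 to 2978 calls in NAA against mock (781 to 1886 rose, 729 to 1324 fell), 3367 to 5916 in NAA+DEX against DEX, 3 to 51 in NAA+CHX against CHX, 89 to 377 for NAA by DEX, 507 to 1005 for NAA by CHX, and 1241 to 2412 and 2 to 26 calls seen again with DEX and with CHX. Calls in NAA+CHX against CHX numbered 14 with an offset of 1, 262 with 64, 166 with a mean intensity of at least 50, 301 with a trended robust prior and 100 with array weights, and calls seen again there 9, 105, 88, 147 and 38. NAA by DEX gave 349 with an offset of 64, 313 with the minimum and 328 with the trended prior, and NAA by CHX 1549 with an offset of 64 and 1606 with the trended prior. The cause was not tested. Array weights, which gave the mock arrays 0.624 against 1.01 to 1.18 elsewhere, left 2071 calls in NAA against mock. Same-numbered arrays did not deviate together (r of -0.06 to 0.07 over 28 pairs of groups), so numbers were not taken to pair the samples, and a replicate block gave 2853 calls.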

Other observations

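Among genes whose symbols share a stem, SWEET sugar transporters had 4 falls and no rise among 14 measured, with a median change of -0.36. Of all genes, 5.22% fell and 6.78% rose. SWEET13 had 249.1 and 226.7 in NAA roots and 613.1 and 650.7 in mock roots, a log2 change of -1.35. SWEET14 had 276.6 and 319.5 in NAA roots and 784.0 and 1097 in mock roots, a log2 change of -1.59. SWEET16 (-0.77) and SWEET17 (-0.84), which act at the vacuole membrane, fell by less. This group was chosen after its values were seen.

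Genes next to each other on a chromosome, in the order of the RefSeq table, were set side by side by their calls, with no test. Of 646 risen genes with a measured neighbour, 106 (16.4%) had a neighbour that rose, against 9.55% of all 8829 genes with a measured neighbour. Of 501 fallen genes, 71 (14.2%) had a neighbour that fell, against 7.20% of those 8829 genes. AT4G37290 and AT4G37295 rose by 3.61 and 4.11 on the log2 scale. AT4G13190 and CLE44 rose by 1.77 and 3.78. AT4G25250 and AT4G25260 had log2 changes of -4.75 and -1.55. Neighbours can be copies of 1 gene whose probe sets bind each other's RNA, and this was not tested.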
